A study of Homo sapiens with 16 samples.

Results

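Hyaluronan is a long sugar polymer of the extracellular matrix, and 9 genes that make it, cut it or bind it were followed here in fibroblasts of the human colon. The 9 genes were found by symbol among 40663 symbols of the deposited table, of which 26907 had at least 1 count in the 16 libraries, and all 9 were among these. They were chosen by function, but with earlier results of these data known, among them the higher level of HAS3 under GSK-J4 than in vehicle. Differences between GSK-J4 and vehicle are therefore given for the 9 genes as descriptions with no test, and the same holds for HAS3 in any comparison that involves GSK-J4. Intervals printed with these differences show the replicate spread and are not to be read as tests. Tests of other members that involve GSK-J4 use the same GSK-J4 libraries, so the choice of genes may favour them.

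RNA was sequenced from 16 cultures of Ccd18-Co, an established fibroblast line of normal human colon, in 4 groups of 4. Cultures of 3 groups were exposed to 3 pulses of TNF, OSM and IL-17A, each at 10 ng/ml, together with IL-1B at 0.1 ng/ml. Each pulse lasted 72 h and was followed by 96 h of recovery. After 1 week without cytokines, these groups received for 5 days either the solvent DMSO (here called vehicle), 250 nM belinostat or 10 µM GSK-J4, and RNA was collected 2 weeks later. Belinostat inhibits histone deacetylases, and GSK-J4 inhibits the enzymes that remove methyl groups from lysine 27 of histone H3. The labels' doses are given here. The study's methods name another concentration of IL-1B, although a figure legend gives that of the labels. Its figure legends name other concentrations of belinostat and GSK-J4, for GSK-J4 in a measurement of secreted protein. The doses are therefore not settled. For RNA sequencing of these treatment groups, the study also states fewer replicates than the 4 used here. The remaining group (unstimulated) had no cytokines and, by its sample titles, DMSO. The table's columns for this group carry the word none in place of DMSO and were matched by replicate number, so whether these cultures received the solvent is not settled either. All 16 cultures came from a single cell line, each compound was used at 1 dose, and the labels do not say whether replicates were separately grown, so p-values measure the spread between these cultures, which may be technical.

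Hyaluronan is extruded through the plasma membrane by the synthases HAS1, HAS2 and HAS3, which join glucuronic acid and N-acetylglucosamine taken from UDP-sugars. It is cut outside the cell or at its surface by CEMIP and HYAL2, and the fragments are degraded in lysosomes, where HYAL1 acts. CEMIP2 is a membrane protein related to CEMIP whose own hyaluronidase activity is debated. CD44 is the main surface receptor for hyaluronan. TNFAIP6, also known as TSG-6, is a secreted protein that binds hyaluronan and transfers heavy chains of inter-alpha-inhibitor onto it. In the gut, fibroblasts are a principal source of the polymer.

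The libraries held 14.4 to 19.5 M estimated counts. All 10 fibroblast markers looked up, among them COL1A1 and DCN, averaged 10 normalized counts or more, and their summed level ran from 431800 to 575216 normalized counts. The epithelial markers summed to at most 30.1 normalized counts in any library, with KRT20 at 0, and of 8 immune markers 2, CD68 and CD14, averaged 10 or more, with CD3E, MS4A1 and ITGAM at 0. The summed immune markers ran from 262 to 498 in unstimulated cells, 298 to 520.1 in vehicle, 298 to 726 under belinostat and 348 to 526 under GSK-J4. The endothelial markers summed to 26.1 to 52.4 over all libraries, of which VWF gave 13.3 to 39.1, and the glial and neuronal markers to 3.07 to 14.5, with SOX10 at 0. Their part in the results was not tested. Belinostat replicate 17 stood apart from its group. Its deviation from the other 3 belinostat libraries, relative to sampling noise, was 26.5 to 31.6, against 3.69 to 4.70 among those 3. Within the other groups deviations ran from 2.97 to 31.3, the highest between unstimulated replicates 1 and 3. Values that moved by over 1.5 times or lost a call without belinostat replicate 17 are also given without it.

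The level of each gene was first set on a common scale, as the normalized count (estimated count divided by the library's size factor) per kb of its representative transcript. CEMIP was the most abundant, with a mean of 6835 per kb over the 16 libraries, followed by CD44 at 2626 per kb. HYAL2 (307 per kb) and CEMIP2 (191 per kb) formed an intermediate pair. HAS3 followed at 18.6, TNFAIP6 at 6.95, HAS2 at 1.80, HYAL1 at 1.72 and HAS1 at 0.0596 per kb. Over the 16 libraries the ranges of the neighbours CEMIP (2573 to 9210 per kb) and CD44 (2096 to 3318 per kb) met, whereas those of HYAL2 (259 to 370.2 per kb) and CEMIP2 (158 to 209 per kb) did not. The ranges of HAS3 and TNFAIP6, of TNFAIP6 and HAS2, and of HAS2 and HYAL1 overlapped too. By mean normalized count CEMIP ranked 13th and CD44 121st of the 26907 genes with a count, and CEMIP alone took 0.109% to 0.379% of a library. Dividing by the union of all annotated exons instead lowered HYAL2 to 131, CEMIP2 to 127 and CD44 to 1427 per kb and left the order of the 9 genes as it was.

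**Figure D1:**
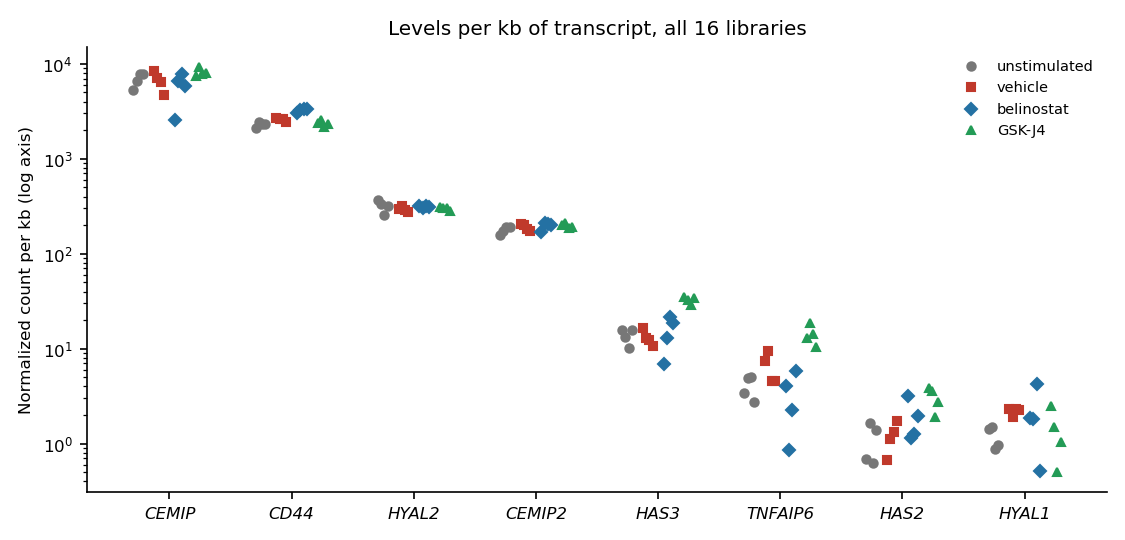
Levels per kb of transcript in the 16 libraries, on a log axis. Each point is a library, coloured by group, and HAS1, which was at 0 in 14 libraries, is left out. CEMIP and CD44 lie above all other genes in every library, and the HAS3 and TNFAIP6 points of GSK-J4 lie above those of the other groups.

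Among the synthases, HAS3 held the largest share of the signal in every library. HAS3 (ENSG00000103044.11, chromosome 16, 69105653 to 69118719, plus strand, GRCh38) made up 85.9% to 96.1% of the summed per-kb level of the 3 synthases in 15 libraries, and 68.4% in belinostat replicate 17. The promoter of HAS3 and that of TNFAIP6, the other gene in which every GSK-J4 library exceeded every library of the 3 other groups, are shown here as the 250 bases before their RefSeq start (GRCh38.p14), the HAS3 stretch at chr16:69107290-69107539 and the TNFAIP6 stretch at chr2:151357342-151357591, both on the plus strand. Capitals mark matches to a short motif on either strand.
HAS3: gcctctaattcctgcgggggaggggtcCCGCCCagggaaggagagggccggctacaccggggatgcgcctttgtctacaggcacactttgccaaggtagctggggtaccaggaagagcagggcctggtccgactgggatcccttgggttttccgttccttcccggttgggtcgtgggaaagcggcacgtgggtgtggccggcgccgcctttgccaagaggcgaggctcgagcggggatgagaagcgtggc
TNFAIP6: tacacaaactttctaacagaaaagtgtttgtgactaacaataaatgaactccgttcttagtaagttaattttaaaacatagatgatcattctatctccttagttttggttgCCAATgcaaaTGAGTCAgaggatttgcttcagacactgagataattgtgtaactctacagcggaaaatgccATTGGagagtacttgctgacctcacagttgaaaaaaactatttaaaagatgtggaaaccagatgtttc
The HAS3 stretch is 66.0% G and C, against a median of 58.0% over 27305 promoters, and it holds 1 GC box (GGGCGG), which 42.3% of promoters hold. It lies inside the annotated span of HAS3, which begins at 69105653, and its overlap with annotated exons was not examined. The TNFAIP6 stretch is 34.4% G and C. It holds 1 AP-1 site (TGANTCA, 129 bases before the start, present in 6.60% of promoters) and 2 CCAAT boxes (CCAAT, 139 and 68 bases before the start, present in 33.0%). No match to the CRE motif (TGACGTCA), the STAT motif (TTCNNNGAA), the TATA motif (TATAAA) or the NF-kB motif was found in either stretch, which says only that these letters are absent from these windows. RefSeq promoters were matched for 8 of the 9 genes.

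HAS3 was highest under GSK-J4. It stood at 65.6, 55.1, 42.6 and 66.4 normalized counts in unstimulated replicates 1 to 4 and at 69.5, 54.6, 52.2 and 44.3 in vehicle replicates 13 to 16. Under belinostat (replicates 17 to 20) it stood at 28.6, 53.7, 90.6 and 77.9, and under GSK-J4 (replicates 21 to 24) at 145.4, 135.2, 121.9 and 143.6. All 4 GSK-J4 libraries exceeded the other 12, and the remaining 3 groups overlapped. The mean was 137 ± 10.7 under GSK-J4 against 55.1 ± 10.5 in vehicle (SD, n = 4), 2.48-fold higher, a log2 fold change of 1.31 (SE 0.25, 95% interval 0.81 to 1.81). Against unstimulated cells the log2 fold change was 1.25 (SE 0.25). Belinostat was lower than GSK-J4 by a log2 fold change of -1.13 (SE 0.25, 95% interval -1.62 to -0.63). These 3 values describe the gene for which the set was chosen and are given with no test, and their intervals are not to be read as one. The comparisons of HAS3 that leave GSK-J4 out showed no change that could be told from the replicate spread. Vehicle and unstimulated cells differed by -0.06 on the log2 scale (95% interval -0.57 to 0.46, DESeq2 adjusted p 0.998), and belinostat and vehicle by 0.18 (-0.33 to 0.70, adjusted p 0.847). Without belinostat replicate 17 the latter was 0.43 (adjusted p 0.253). Belinostat carried the widest spread of any HAS3 group, 28.6 to 90.6, with replicate 17 lowest. HAS3 exons overlap those of CHTF8 and DERPC on the opposite strand by 365 bases, and counting without strand cannot separate reads there. CHTF8 had means of 1463 ± 20.5 in vehicle and 1502 ± 33.0 under GSK-J4 (SD, n = 4) and DERPC 40.4 ± 13.7 and 38.3 ± 21.1, log2 fold changes of 0.04 and -0.08.

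**Figure D2:**
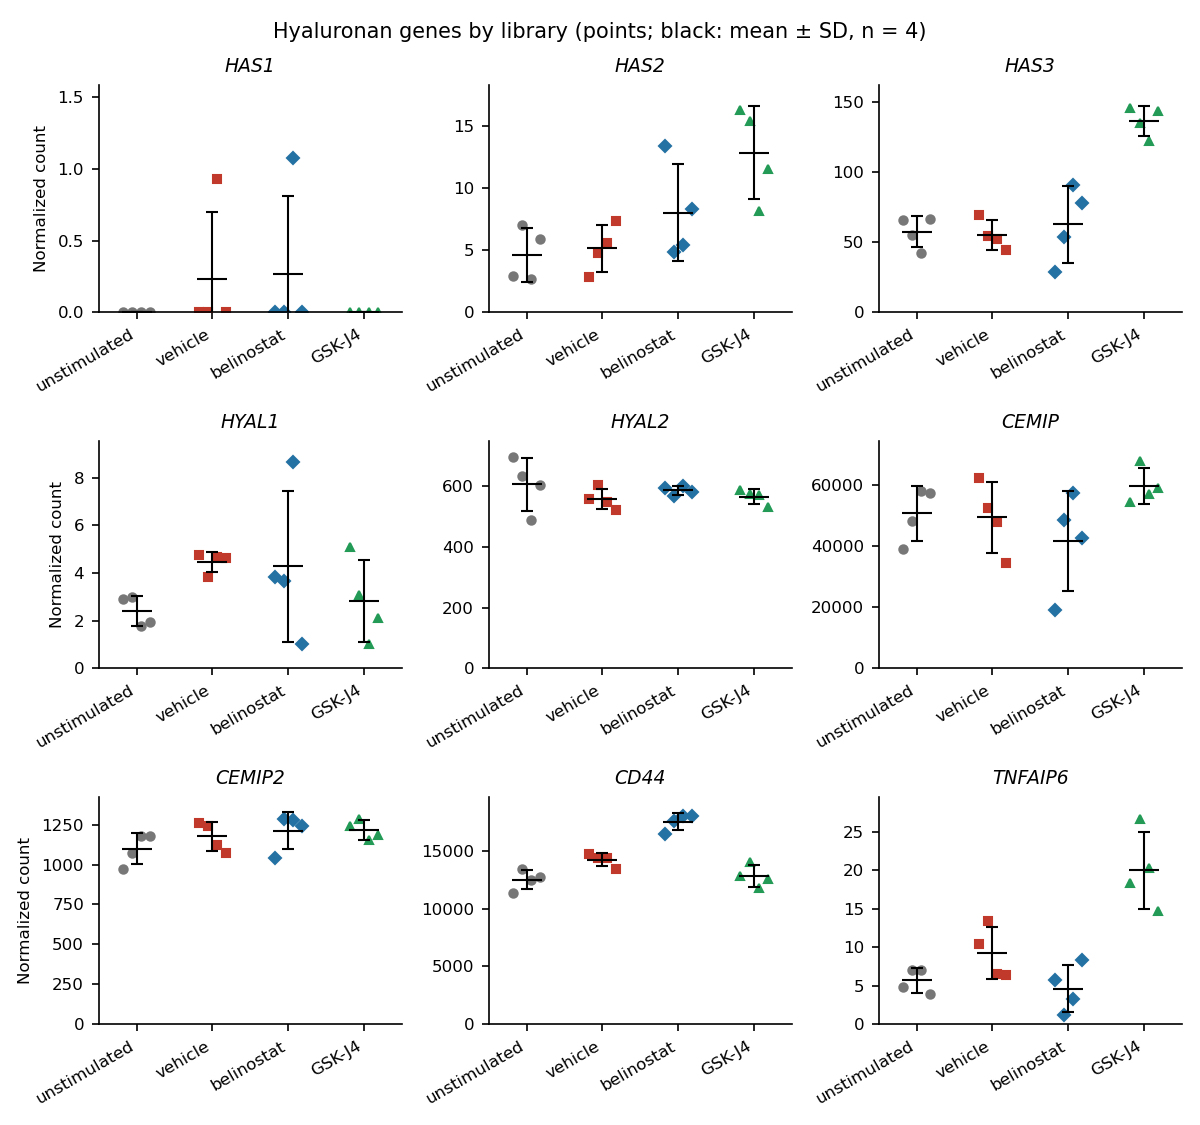
Normalized counts of the 9 hyaluronan genes in each library, with the mean ± SD of each group of 4 in black. Each panel has its own axis from 0. The 4 GSK-J4 points of HAS3 (121.9 to 145.4) and TNFAIP6 (14.7 to 26.6) lie above all others, and the 4 belinostat points of CD44 (16481 to 18021) lie above all others.

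HAS2, the synthase that makes most of the hyaluronan of the developing embryo and of many fibroblasts, was barely detected. Its normalized counts were 2.90, 7.01, 2.66 and 5.86 in unstimulated cells and 2.86, 4.79, 5.59 and 7.38 in vehicle. They were 13.4, 4.88, 5.39 and 8.31 under belinostat and 16.3, 15.4, 8.13 and 11.5 under GSK-J4. The GSK-J4 libraries lay above those of vehicle and of unstimulated cells without overlap, while belinostat overlapped with each of the other groups. These levels rest on 3 to 16 counts per library. The log2 fold change of GSK-J4 was 1.31 against vehicle (95% interval 0.30 to 2.32, description only) and 1.49 against unstimulated cells (SE 0.53, DESeq2 adjusted p 0.0749). The latter was called in edgeR alone among the alternative fits (adjusted p 0.0478). Vehicle and unstimulated cells differed by 0.18 (adjusted p 0.992), and belinostat and GSK-J4 by -0.66 (adjusted p 0.477), or -1.04 without belinostat replicate 17 (adjusted p 0.236). HAS2 shares 251 exonic bases with its antisense gene HAS2-AS1, which had means of 1.45 to 2.36 normalized counts in the 4 groups. HAS1 was seen as 1 count in vehicle replicate 15, 1 count in belinostat replicate 19 and 0 in the other 14 libraries, so no difference in HAS1 was detectable at this depth, where a count of 0 allows up to 3 counts. That floor covers counting error only, whereas the printed intervals also hold the spread between replicates.

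GSK-J4 against vehicle, a description, is left out of the counts for the genes of turnover. In the other comparisons 0 of CEMIP, CEMIP2 and HYAL2 were called by DESeq2 or edgeR. There, CEMIP between belinostat and GSK-J4 alone had an unadjusted DESeq2 p under 0.05. CEMIP (ENSG00000103888.17, chromosome 15, 80779343 to 80951776) binds hyaluronan and is needed for its breakdown in skin fibroblasts. It stood at 39012, 48211, 58017 and 57374 normalized counts in unstimulated replicates and at 62185, 52327, 47919.5 and 34533 in vehicle. Under belinostat it stood at 18919, 48258, 57096 and 42515, and under GSK-J4 at 54415, 67721, 56834 and 58818. All groups overlapped, and the lowest library was belinostat replicate 17. Its largest difference was between belinostat and GSK-J4, with a log2 fold change of -0.51 (SE 0.24, 95% interval -0.99 to -0.03, DESeq2 adjusted p 0.178), which was -0.27 without belinostat replicate 17 (adjusted p 0.404). Belinostat against vehicle gave -0.24 (adjusted p 0.743), which became 0.002 without belinostat replicate 17. Vehicle against unstimulated cells gave -0.04 (95% interval -0.52 to 0.44). GSK-J4 stood above vehicle by 0.27 (-0.21 to 0.75), a description. CEMIP shares 122 exonic bases with MESD and 71 with a long noncoding RNA on the other strand, and MESD had means between 1001 and 1103 in all groups.

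HYAL2, a membrane-anchored hyaluronidase, and CEMIP2 were nearly level across the groups. HYAL2 ran from 487 to 697 normalized counts over the 16 libraries, with group means of 605 ± 88.1 in unstimulated cells, 557 ± 33.5 in vehicle, 586 ± 14.6 under belinostat and 565 ± 23.6 under GSK-J4 (SD, n = 4). Every group overlapped with every other, and the 95% intervals of its 6 log2 fold changes lay between -0.30 and 0.25. HYAL2 shares 509 exonic bases with TUSC2 on the same strand, whose group means were 331 to 352. CEMIP2 ran from 970 to 1286 normalized counts, with group means of 1099 ± 98.8, 1176 ± 91.7, 1212 ± 115 and 1216 ± 60.5 in the same order. With GSK-J4 against vehicle left out, CEMIP2 was not called in any contrast. Its largest log2 fold changes were 0.14 for both compounds against unstimulated cells (adjusted p 0.338 for belinostat and 0.431 for GSK-J4). The lysosomal HYAL1 gave 1 to 8 counts per library. Its group means were 2.41 ± 0.632 in unstimulated cells, 4.47 ± 0.426 in vehicle, 4.29 ± 3.16 under belinostat and 2.82 ± 1.73 under GSK-J4. Although the 4 vehicle libraries (3.83 to 4.76) lay above the 4 unstimulated ones (1.78 to 3.00), the counts are too near the floor for a fold change to be given.

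CD44 (ENSG00000026508.21, chromosome 11, 35138882 to 35232402) was highest under belinostat. It stood at 11384, 13383, 12487 and 12723 normalized counts in unstimulated cells and at 14679, 14371, 14418 and 13393 in vehicle. Under belinostat it stood at 16481, 17551, 18001 and 18021, and under GSK-J4 at 12821, 14048, 11805 and 12585. All 4 belinostat libraries lay above the other 12, replicate 17 included. DESeq2 called CD44 higher under belinostat than in vehicle (log2 fold change 0.30, SE 0.06, 1.23-fold, adjusted p 3.08e-05), than in unstimulated cells (0.49, SE 0.06, adjusted p 8.91e-14) and than under GSK-J4 (0.45, SE 0.06, adjusted p 4.46e-12). These 3 calls held in all 21 alternative fits, with log2 fold changes of 0.27 to 0.33 against vehicle. Vehicle lay above unstimulated cells by 0.19 (SE 0.06, adjusted p 0.0848), with no overlap between the 8 libraries, although vehicle replicate 16 (13393) and unstimulated replicate 2 (13383) nearly met. This difference was not called. It was called (adjusted p 0.0350 to 0.0451) with total-count size factors and without unstimulated replicate 2, belinostat replicate 17 or GSK-J4 replicate 22. GSK-J4 was lower than vehicle by 0.15 (95% interval -0.27 to -0.03, description) and differed from unstimulated cells by 0.04 (adjusted p 0.882). CD44 has 38 annotated transcripts, and a value per symbol does not say which of its isoforms were present. On the opposite strand its exons meet CD44-AS1 (84 bases) and CD44-DT (70 bases), which had group means of at most 0.471 and 3.41 normalized counts.

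TNFAIP6 (ENSG00000123610.5, chromosome 2, 151357592 to 151380046) was highest under GSK-J4 and lay at the lower end of detection. Its normalized counts were 4.83, 7.01, 7.10 and 3.91 in unstimulated cells and 10.5, 13.4, 6.52 and 6.46 in vehicle. They were 5.73, 1.22, 3.24 and 8.31 under belinostat and 18.3, 26.6, 20.3 and 14.7 under GSK-J4. The GSK-J4 libraries lay above the other 12, and the other 3 groups overlapped. TNFAIP6 was called higher under GSK-J4 than in unstimulated cells (log2 fold change 1.80, SE 0.46, 3.49-fold, DESeq2 adjusted p 0.0039) and lower under belinostat than under GSK-J4 (-2.08, SE 0.50, adjusted p 0.000594). Both calls held in all 21 alternatives. The same GSK-J4 libraries enter both, so the values are set side by side and not counted as separate evidence. These libraries also enter the comparison with vehicle, known in part when the genes were chosen, so both adjusted p-values may be too low. Against vehicle the log2 fold change of GSK-J4 was 1.12 (95% interval 0.28 to 1.96, description). Belinostat stood below vehicle by -0.95 (95% interval -1.98 to 0.07, adjusted p 0.376), and vehicle above unstimulated cells by 0.68 (-0.28 to 1.65, adjusted p 0.823).

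**Figure D3:**
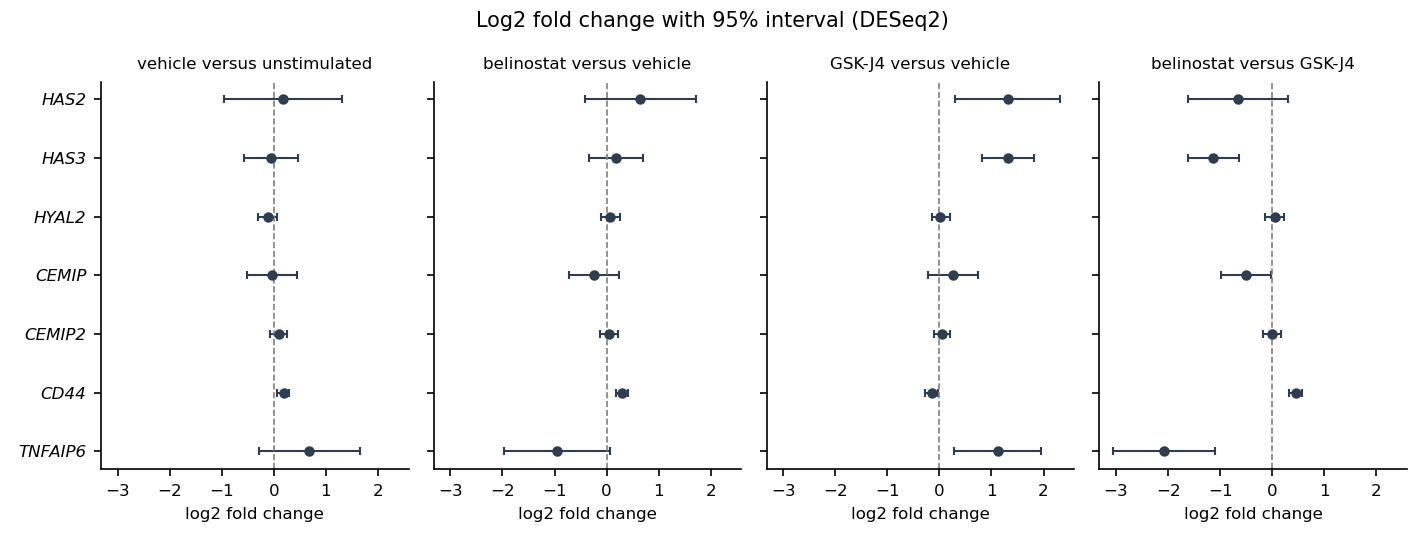
Log2 fold changes of 7 hyaluronan genes with 95% intervals in 4 comparisons, from the fit of all 16 libraries. HAS1 and HYAL1, at or near the floor, are left out. The intervals of HYAL2 and CEMIP2 are narrow and cross 0 in each panel, CD44 lies to the right of 0 in both belinostat panels, and HAS3 and TNFAIP6 lie to the left of 0 in the panel of belinostat against GSK-J4. In the panel of GSK-J4 against vehicle, and for HAS3 in that of belinostat against GSK-J4, the intervals are descriptions and not tests.

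Counted over the 9 genes, calls were few, and not every gene could be tested in every comparison, since DESeq2 sets aside genes with low counts. Between vehicle and unstimulated cells, 0 of 8 tested members were called by DESeq2, where 1.74% of all tested genes were called. At an unadjusted p under 0.05 there was 1, CD44, and edgeR called 0. Between belinostat and vehicle 1 of 6 tested members (CD44) was called, with 6.26% of all tested genes called. Between belinostat and unstimulated cells it was again 1 of 6 (CD44), with 10.3% called. HAS3 is left out of the counts for the next pair of comparisons, since its level under GSK-J4 was known when the genes were chosen. Against unstimulated cells GSK-J4 had 1 of the 7 other tested members called (TNFAIP6), with 5.55% of all tested genes called, and edgeR called 2 (HAS2 and TNFAIP6). Belinostat and GSK-J4 differed in 2 of the 6 other tested members (CD44 higher and TNFAIP6 lower under belinostat), with 12.2% called. In the comparison that the choice of genes used, GSK-J4 against vehicle, 1 of 5 tested members passed, HAS3, with 1.92% of all tested genes called, and nothing is read from that count. Likewise, 3 of the 9 members (HAS2, HAS3 and TNFAIP6) had all GSK-J4 libraries above all vehicle libraries, and 3.36% of symbols with a count were so separated in that direction. In bulk cultures, fewer cells expressing a gene and less RNA per cell cannot be told apart.

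The rest of the pathway was followed in 49 further genes, 47 of which had a count. They fall into sugar-precursor enzymes and transporters, the antisense RNA HAS2-AS1, other hyaluronidases and lysosomal exoglycosidases, receptors other than CD44, cytoskeletal anchors and sheddases of CD44, and secreted hyaluronan-binding proteins. Of 33 tested, 2 were called between vehicle and unstimulated cells (1 higher and 1 lower), where 1.74% of all tested genes were called. Belinostat against vehicle gave 7 of 33 (3 higher and 4 lower), with 6.26% of all genes called, and GSK-J4 against vehicle gave 1 of 31, lower, with 1.92% called. Belinostat against unstimulated cells gave 8 of 33 (5 higher and 3 lower), with 10.3% called. GSK-J4 against unstimulated cells gave 3 of 33 (2 higher and 1 lower), with 5.55% called, and belinostat against GSK-J4 gave 12 of 33 (4 higher and 8 lower), with 12.2% called. The median log2 fold changes of the tested genes were 0.02, -0.07 and 0.01 for the first 3 of these comparisons, against medians within 0.01 of 0 over all tested genes.

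Among the further genes called in a comparison with vehicle, the ankyrins had the largest fold changes, in opposite directions. ANK3 and ANK2 code for adaptors that link membrane proteins, CD44 among them, to the spectrin cytoskeleton. ANK3 stood at 165.0, 189.2, 206.8 and 173.8 normalized counts in unstimulated cells, 302.7, 343, 320.4 and 366.1 in vehicle, 204.3, 256.4, 173.7 and 251.3 under belinostat, and 196.3, 187.4, 193 and 202.3 under GSK-J4. Every vehicle library exceeded the 12 others. It rose by 0.86 in log2 units in vehicle against unstimulated cells (SE 0.12, adjusted p 4.47e-10 in DESeq2) and was lower than vehicle under belinostat (-0.59, adjusted p 3.52e-05) and under GSK-J4 (-0.77, adjusted p 1.15e-07). These contrasts share the vehicle libraries. ANK2 went the other way in vehicle, from 774 ± 40.2 in unstimulated cells to 495 ± 107 (SD, n = 4), a log2 fold change of -0.64 (adjusted p 0.00592). That call was lost in edgeR (adjusted p 0.0530) and without vehicle replicate 16, which was lowest at 350.4 (adjusted p 0.0504). Under belinostat ANK2 stood at 570.0, 879, 857 and 944 and was higher than in vehicle by 0.71 (adjusted p 0.000378), although replicate 17 overlapped with vehicle. GSK-J4 and vehicle differed in ANK2 by -0.08 (adjusted p 0.951).

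Against vehicle, the receptors, sheddases and precursor genes called under belinostat had log2 fold changes of at most 0.33 in size. LAYN codes for layilin, a membrane receptor for hyaluronan. It stood at 2983, 3236, 3450.1 and 3150.2 normalized counts under belinostat and at 2169 to 2733 in vehicle, without overlap, a rise of 0.33 in log2 units (SE 0.07; adjusted p 0.000168 in DESeq2). ADAM17, which can shed CD44 from the cell surface, was higher by 0.24 (adjusted p 0.011), and MMP14, a membrane-bound protease that can also cut CD44, was lower (-0.19, adjusted p 0.0177). SLC35D1, which carries UDP-glucuronic acid into the endoplasmic reticulum, was lower (-0.20, adjusted p 0.00627), as was GNPNAT1, an enzyme on the way to UDP-N-acetylglucosamine (-0.27, adjusted p 0.00546). Belinostat replicate 17 held the highest ADAM17 value (1234) and a MMP14 value (16445) inside the vehicle range. The ADAM17 call was lost without it (adjusted p 0.0589) and without vehicle replicate 13 (0.0545) or 16 (0.0669). The MMP14 call was lost in edgeR, in the fit restricted to both groups and without vehicle replicate 13 or 16 or belinostat replicate 18, 19 or 20 (adjusted p 0.0688 to 0.113). SLC35D1 was lost without vehicle replicate 16 (0.0546) and GNPNAT1 without vehicle replicate 14 (0.0524). The genes named next fall outside the rule for naming genes and were picked after their values were seen. Not every gene called outside the comparisons with vehicle is named. VCAN codes for versican, a large proteoglycan that binds hyaluronan. Its means were 3494 ± 470 in unstimulated cells, 5423 ± 980 in vehicle, 7390 ± 2252 under belinostat and 3961 ± 404 under GSK-J4 (SD, n = 4). Vehicle lay above unstimulated cells by 0.63 (SE 0.20, adjusted p 0.0771), which was called in 4 of the 21 alternatives, namely the fit restricted to both groups and those without belinostat replicate 17 or 19 or vehicle replicate 13 (adjusted p 0.000183 to 0.0183). It was called under belinostat against unstimulated cells (1.08 in log2 units, SE 0.20, adjusted p 4.28e-06 in DESeq2) and against GSK-J4 (0.90, adjusted p 0.000165), but not against vehicle (0.45, adjusted p 0.214), where it was called without belinostat replicate 19 (0.59, adjusted p 0.00705). Belinostat replicate 17 was highest, at 10513, and without it the difference from vehicle was 0.23 (adjusted p 0.514). HMMR, a receptor for hyaluronan also known as RHAMM, had means of 5.44 ± 2.33 in unstimulated cells, 9.64 ± 1.94 in vehicle, 14.4 ± 3.72 under belinostat and 18.99 ± 5.94 under GSK-J4 (SD, n = 4). It gave 3 to 26 counts per library, at the lower end of detection as TNFAIP6 was. DESeq2 called it higher than in unstimulated cells under belinostat (1.39, SE 0.45, 2.63-fold, adjusted p 0.0268) and under GSK-J4 (1.79, SE 0.44, adjusted p 0.00222). The first of these calls was lost in 5 of the 21 alternatives, the fit restricted to both groups and those without unstimulated replicate 2 or 4 or belinostat replicate 19 or 20 (adjusted p 0.0723 to 0.114). UAP1, the enzyme that forms UDP-N-acetylglucosamine, had means of 406.5 ± 107.7, 345.4 ± 42.2, 279 ± 45.6 and 421.7 ± 34.0 in the same order of groups. It was lower under belinostat than in unstimulated cells (-0.54, SE 0.16, DESeq2 adjusted p 0.0141) and than under GSK-J4 (-0.59, SE 0.16, adjusted p 0.00417). The difference from unstimulated cells was no longer called in 5 of the 21 alternatives, the fit restricted to both groups and those without unstimulated replicate 2 or 4 or belinostat replicate 18 or 19 (adjusted p 0.0679 to 0.121). Of 9 sugar-precursor genes tested between belinostat and unstimulated cells, 1 was called lower (UAP1) and 1 higher (GFPT1). GFPT1 rose by 0.16 in log2 units (SE 0.05, DESeq2 adjusted p 0.0092), a call that held in 20 of the 21 alternatives.

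**Figure D4:**
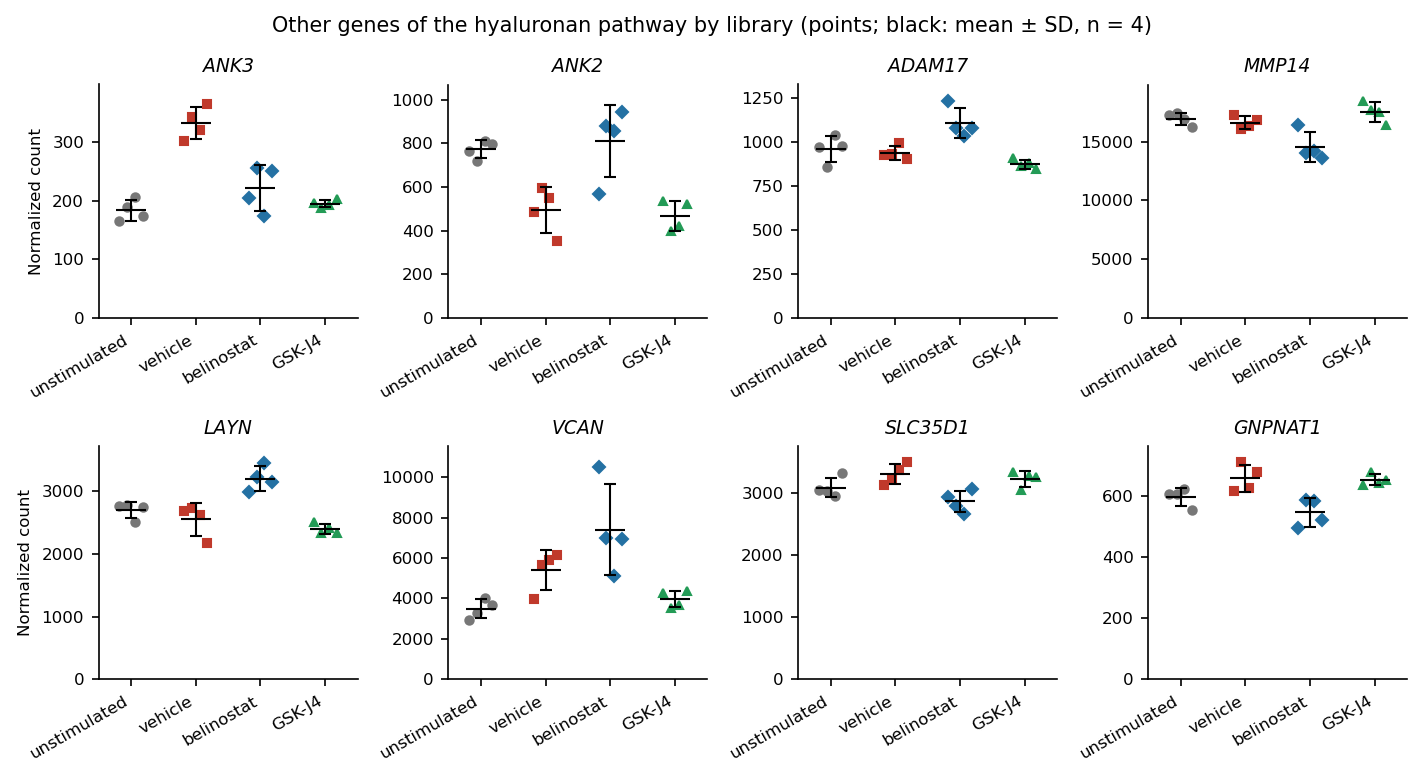
Normalized counts of 8 further pathway genes in each library, with the mean ± SD of each group of 4 in black and axes from 0. The vehicle points of ANK3 (303 to 366) lie above all others, and the belinostat points of LAYN (2983 to 3450.1) lie above all others.

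The patterns of HAS3, CD44 and CEMIP over the 16 libraries were set against those of 11740 genes that averaged 50 normalized counts or more. Likeness was Pearson's r of log2(normalized count + 1), given as a description with no p, since libraries of a group share their treatment. The 3 genes most like HAS3 were MYH11 (r = 0.929, Spearman's rho 0.853), PRKAG2 (r = 0.926, rho 0.879) and CNN1 (r = 0.917, rho 0.844). With the group means removed, r was 0.848 to 0.853, and without the 2 libraries farthest from the HAS3 median it was 0.865 to 0.897. MYH11 stood at 3674 ± 357 under GSK-J4 and 1707 ± 272 in vehicle (SD, n = 4). Most like CD44 were KIAA1755 (r = 0.926), RBMS2 (r = 0.923) and NIPAL3 (r = 0.923), and here r fell to 0.569 to 0.680 once group means were removed. CEMIP was added to this comparison after its values were seen, as belinostat replicate 17 was so low. Its nearest genes were GUCY1B1 (r = 0.966, rho 0.832), PDE5A (r = 0.962, rho 0.862) and IRAG1 (r = 0.955, rho 0.862). Group means removed, r stayed at 0.952 to 0.973. Without the 2 libraries farthest from the CEMIP median it was 0.813 to 0.870. GUCY1B1 was lowest in belinostat replicate 17 (146 normalized counts, against 430 to 544 in the other 3), as CEMIP was.

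**Figure D5:**
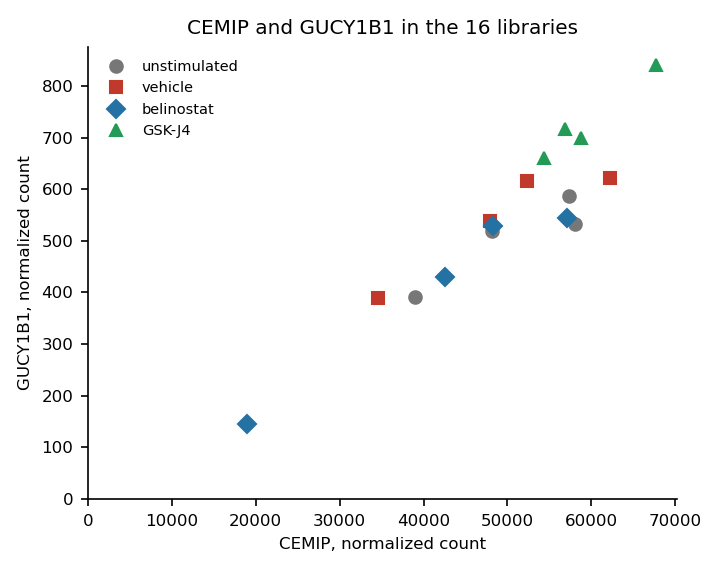
CEMIP against GUCY1B1 in normalized counts, with 1 point per library and both axes from 0. The points run from belinostat replicate 17 at the lower left (18919 and 146) to GSK-J4 replicate 22 at the upper right (67721 and 841), and Pearson's r over the 16 libraries on the log2 scale was 0.966.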

How the data were processed

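RNA-seq of 16 Ccd18-Co cultures was analysed. Per the labels, FastQC 0.11.9, MultiQC 1.14 and kallisto 0.48.0 were used, and hg38 is named. The values the authors deposited are estimated counts per gene symbol, not scaled to library size, and 28.0% had decimals. The transcriptome release and the summing of transcripts to symbols are not given in the sources used here. The estimated counts were rounded to whole numbers. Libraries held 14.4 to 19.5 M counts and carried no molecular identifiers. The floor given for HAS1 covers counting error only, and the intervals come from the fit, which includes the spread between replicates. Each of 6 comparisons came from a single DESeq2 1.42.0 fit (R 4.3.3, Wald test, median-of-ratios size factors, all 16 libraries, no prior filter, default independent filtering), with calls at a Benjamini-Hochberg adjusted p under 0.05 over all tested genes and unshrunken fold changes. Samples were grouped by their titles.

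The members and the gene lists were chosen with earlier results of these data known. Besides the members, the text names pathway genes called in a comparison with vehicle, and for members with a mean of at least 50 called there the 3 genes most alike. Alternatives were edgeR 4.0.16 (quasi-likelihood, TMM), TMM or total-count size factors, a filter of 10 counts in 4 libraries, a fit restricted to both compared groups, and leaving out each library. Steps were tested on simulated data. Replicates were checked for duplicate libraries and none were found. Gene positions and lengths are from GENCODE on GRCh38 by symbol, promoters from RefSeq, and figures were drawn with matplotlib 3.10.9.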

Additional observations from a re-analysis of the deposited data

Results flagged for a closer look

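Among the 6 tested members other than HAS3, 2 were called between belinostat and GSK-J4, where 12.2% of all tested genes were called. The fit of all 16 libraries was used. CD44 gave a log2 difference of 0.45 (DESeq2 adjusted p 4.46e-12), with all 4 belinostat libraries above all 4 GSK-J4 libraries. TNFAIP6 gave -2.08 (adjusted p 0.000594), with all 4 belinostat libraries lower. Both tests use the GSK-J4 libraries, so given how the genes were chosen these adjusted p-values may be too low. The same difference for HAS3 was -1.13, also with all 4 belinostat libraries lower, and it was not tested because the genes were chosen with its level under GSK-J4 known.

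HYAL1 in vehicle replicate 14 stood at 3.833 normalized counts, apart from the other 3 vehicle libraries at 4.61 to 4.76. It was 1 of 32 groups of 4 examined for a library that stands apart, where chance flags about 1 in 20, and the gap is less than 1 count.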

How the results depend on the processing

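The number of members called between vehicle and unstimulated cells was 0 in the reported fit and 1 with total-count size factors, and 0 to 1 when each library was left out. It was 1 (CD44) without unstimulated replicate 2, belinostat replicate 17 or GSK-J4 replicate 22. The number of further pathway genes called there was 2, and it was 4 in the fit of both groups alone, 1 in edgeR and 1 (without vehicle replicate 16) to 5 (without belinostat replicate 17) when a library was left out. For belinostat against vehicle it was 7, and 4 (without vehicle replicate 16) to 11 (without belinostat replicate 17). For belinostat against unstimulated cells it was 8, then 3 in the fit of both groups alone and 4 to 8 with a library left out, with 4 without unstimulated replicate 2 and 5 without belinostat replicate 19. For GSK-J4 against unstimulated cells it was 3, and 5 in the fit of both groups alone. The cause of these shifts was not tested.

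Signs turned only for differences that were near 0 or imprecise, and none was called where a test was read. The reported fit gave -0.27 for TNFAIP6 between belinostat and unstimulated cells, and -0.24 for CEMIP between belinostat and vehicle. With a library left out, vehicle against unstimulated cells ran from -0.05 to 0.45 for HAS2, -0.19 to 0.03 for HAS3 and -0.17 to 0.10 for CEMIP. Belinostat against vehicle ran from -0.05 to 0.43 for HAS3 and -0.43 to 0.002 for CEMIP. Belinostat against unstimulated cells ran from -0.11 to 0.38 for HAS3, -0.14 to 0.03 for HYAL2 and -0.69 to 0.01 for TNFAIP6. GSK-J4 ran from -0.01 to 0.06 against vehicle for HYAL2 and from -0.01 to 0.07 against unstimulated cells for CD44. Belinostat against GSK-J4 ran from -0.03 to 0.06 for CEMIP2, which was 0.01 with total-count size factors. The calls of CD44 under belinostat and of TNFAIP6 under GSK-J4 against unstimulated cells and against belinostat held in all 21 alternatives. For TNFAIP6 the alternatives do not remove the limit set by the choice of genes. No paired analysis was possible because the groups share no replicate numbers. Ranked by Spearman's rho, 1 of the 3 genes most like HAS3 and 0 of those most like CD44 were shared with the ranking by Pearson's r. Depth limits HAS1, HAS2, HYAL1, TNFAIP6 and HMMR, whose libraries held at most 26 counts each.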
